A study of Mus musculus with 141 samples.

Results

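Calpains are intracellular cysteine proteases that cut a limited set of sites in their substrates. The classical pair, Capn1 and Capn2, are calcium-activated catalytic subunits that work with the small regulatory subunit Capns1 and are held in check by the inhibitor calpastatin, the product of Cast. Capn5, Capn7, Capn10 and Capn15 are non-classical calpains, and Capn5 is best known as a membrane-associated calpain of photoreceptors. CpG-dense sequence at gene starts is usually unmethylated in mammalian cells, while the inside of a gene is usually methylated. The R132H mutation makes isocitrate dehydrogenase produce 2-hydroxyglutarate, which inhibits the TET enzymes that start the removal of DNA methylation.

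Methylation of 6 calpain genes (Capn5, Capn1, Capn2, Capn7, Capn10 and Capn15) was read in single mouse glioma cells of a line carrying that mutation. The genes and the 1 kb beyond either end were taken, which gave 506 of the 1416034 cytosine positions of the methylation table, 88 of them at Capn5. Capn5 was chosen because its upper end, the end with the higher coordinate, was more methylated with AG-881 in these same data. Levels at that end are therefore a description of a selected region and are given with no test.

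All cells were IdhR132H mouse glioma cells. The AG-881 arm held 67 cells cultured with 1 µM AG-881, an inhibitor of mutant IDH1 and IDH2 also known as vorasidenib, for more than 2 weeks. The DMSO arm held 74 cells cultured with the vehicle, also for more than 2 weeks. Live cells were sorted singly, and their DNA was read by single-cell reduced representation bisulfite sequencing (scRRBS), which covers CpG-dense fragments cut by the enzyme MspI. The labels name 1 plate per arm, no separate cultures and no second line, so each arm is 1 sample, cells are not replicates of the treatment, and no p-value is given. The 4 library pools of each arm (pools 1 to 4 with AG-881, pools 5 to 8 with DMSO) serve as technical batches; each pool holds cells of 1 arm only, so the effects of pool and of treatment cannot be told apart.

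Depth differed between the arms. A cell had a median of 89440 CpGs called with AG-881 (range 23895 to 190259) and 67749 with DMSO (range 10438 to 165853). The mean level of a cell, the percentage of its calls that were methylated, was 33.4% ± 3.61 with AG-881 and 34.3% ± 2.85 with DMSO (SD over cells). A call is 1 CpG read in 1 cell, and regions were compared at shared CpGs, which had calls from 5 or more cells per arm. Intervals in brackets are exact (Clopper-Pearson) binomial intervals at the 95% level. They cover counting error alone and are too narrow where 1 cell gives several calls in a region, since such calls are not independent.

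The upper end of Capn5 was more methylated in AG-881 cells than in DMSO cells. Capn5 lies at chr7:98121559-98178946 (mm10), and its upper end was read from chr7:98177946 to chr7:98179946. With AG-881, 26.98% of 278 calls from 50 cells were methylated (21.9 to 32.6%). With DMSO, 10.8% of 250 calls from 50 cells were methylated (7.24 to 15.3%). The difference was 16.2 percentage points (9.34 to 22.8). Of 9446 gene ends of protein-coding genes measured in the same way, 0.974% were at least 10 points higher with AG-881 and 3.47% at least 10 points lower; among the 1113 ends that lay between 5 and 20% in DMSO, 2.52% were at least 10 points higher. The end was picked from this contrast, and nothing further is read from its place among them.

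Each library pool gave a value. Pools 1 to 4 (AG-881) had levels of 22.97, 22.06, 20 and 37.4%, from 74, 68, 45 and 91 calls. Pools 5 to 8 (DMSO) had levels of 11.1, 10.5, 13.2 and 8.33%, from 72, 38, 68 and 72 calls. The pools of the arms did not overlap, and the highest value, that of pool 4, stood apart from the other AG-881 pools. Of the 5439 gene ends with at least 20 calls in every pool, 0.147% had every AG-881 pool above every DMSO pool, and 1.38% had every AG-881 pool below. Without pool 4 the difference at Capn5 was 11.1 points.

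The window held 32 positions, which merged to 27 CpGs, 18 of them shared. All 18 lay 421 to 898 bp below the end and so inside the gene. Beyond the end the table held 1 CpG, 280 bp out, methylated in its 1 call in either arm. The comparison therefore covers a short stretch inside Capn5 and not both sides of its end. The same stretch lies inside Gm16938, a long non-coding RNA gene at chr7:98177194-98184804 that overlaps the end of Capn5. At the edge of the window, the CpG 911 bp below the end had 2 of 4 calls methylated with AG-881 and 0 of 3 with DMSO. Just outside, the CpG 1079 bp below the end had 2 of 11 calls methylated with AG-881 and 0 of 7 with DMSO. On the other side the nearest CpG lay 5295 bp above the end and was methylated in 4 of 4 calls with AG-881 and 2 of 2 with DMSO.

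**Figure D1:**
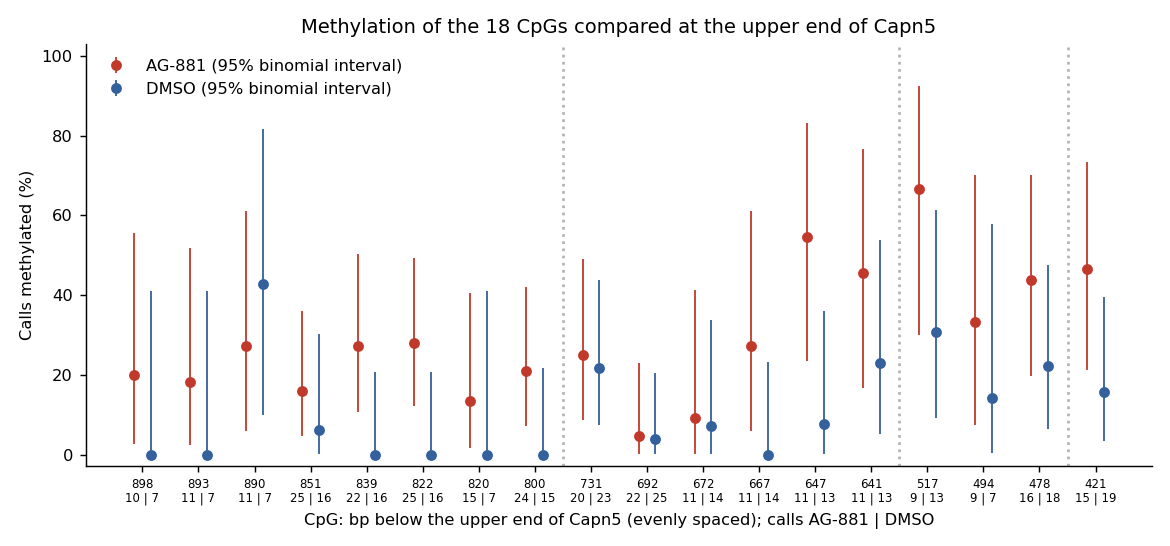
Level of each of the 18 shared CpGs at the upper end of Capn5 (y axis, percentage of calls methylated) in order of distance below the end (x axis, bp, with calls per arm), AG-881 in red left of DMSO in blue; bars are 95% binomial intervals and dotted lines part the blocks. Points for AG-881 lie above those for DMSO at 17 of 18 CpGs, and the intervals of the arms overlap at each CpG, with 25 calls or fewer per CpG and arm.

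CpG by CpG, 17 of the 18 were higher with AG-881 and 1 was lower. Levels ranged from 4.55 to 66.7% with AG-881 and from 0 to 42.9% with DMSO. At 7 of the 18 CpGs no DMSO call was methylated, while with AG-881 none of the 18 was without a methylated call. For these counts over the 18 CpGs no share over all shared CpGs was taken, so nothing is read from them. Among the 12 CpGs with at least 10 calls in each arm, 12 were higher with AG-881, 8 of them by at least 10 points. Of 103219 such CpGs in the table, 16.4% were higher with AG-881 and 6.32% by at least 10 points; of the 40761 with a methylated call in either arm, 41.5% were higher. These shares stand beside the counts over the 12 CpGs as background only, since those CpGs lie in an end chosen for being higher. Without pool 4, 5 of the 8 CpGs still called often enough were higher, without pool 5 it was 7 of 8, without pool 7 it was 10 of 12, and without pool 8 it was 7 of 8. Without each of the other pools, all the CpGs counted were higher.

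The CpGs fell into 4 blocks parted by more than 50 bp, a grouping chosen after their values were seen. The lowest block, 898 to 800 bp below the end, was the one in which DMSO cells were closest to unmethylated. Its 8 CpGs had 31 of 143 calls methylated with AG-881, or 21.7% (15.2 to 29.3%), and 4 of 91 with DMSO, or 4.40% (1.21 to 10.9%). The difference in this block was 17.3 points (8.14 to 25.6). At its CpG 822 bp below the end, 7 of 25 calls were methylated with AG-881 and 0 of 16 with DMSO. At 839 bp the counts were 6 of 22 with AG-881 and 0 of 16 with DMSO. At 800 bp they were 5 of 24 with AG-881 and 0 of 15 with DMSO. The exception to the direction lay in this block as well, at 890 bp, with 3 of 11 calls methylated with AG-881 and 3 of 7 with DMSO. All 4 methylated DMSO calls of the block came from that CpG and from the one at 851 bp, which had 4 of 25 with AG-881 and 1 of 16 with DMSO.

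The second block, 731 to 641 bp below the end, was mixed. Its 6 CpGs had 24.4% of 86 calls methylated with AG-881 and 10.8% of 102 calls with DMSO, a difference of 13.6 points (2.08 to 25.3). Neighbouring CpGs in it behaved unlike each other. At 731 bp, 5 of 20 calls were methylated with AG-881 and 5 of 23 with DMSO, and at 692 bp 1 of 22 with AG-881 and 1 of 25 with DMSO, so these CpGs had nearly the same levels in both arms. At 647 bp, 6 of 11 calls were methylated with AG-881 and 1 of 13 with DMSO, the widest gap in the block. The pools also parted here: pool 3 had 0 of 10 calls methylated and pool 4 had 38.5% of 39, both with AG-881, while the DMSO pools lay between 8 and 16.7%.

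The upper blocks were the most methylated in both arms. The third, at 517 to 478 bp, had 16 of 34 calls methylated with AG-881, or 47.1%, and 9 of 38 with DMSO, or 23.7%. The fourth, a single CpG at 421 bp, had 7 of 15 calls methylated with AG-881, or 46.7%, and 3 of 19 with DMSO, or 15.8%. With so few calls the differences have wide counting intervals, -0.557 to 44.99 points for the third block and -3.92 to 60.4 for the fourth.

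**Figure D2:**
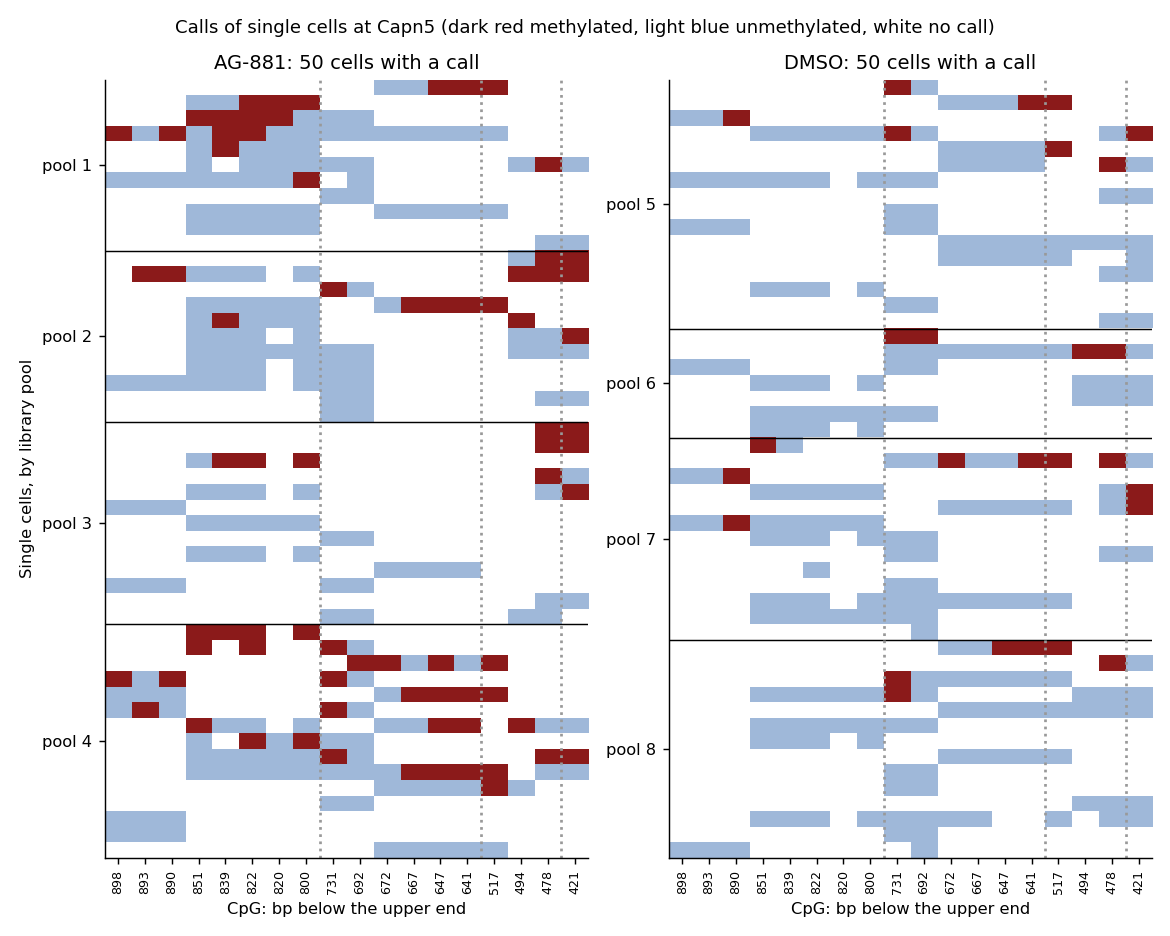
Calls of single cells (rows, by library pool) at the 18 shared CpGs (columns, bp below the upper end of Capn5), AG-881 cells in the left panel and DMSO cells in the right, with methylated calls in dark red, unmethylated calls in light blue and no call in white. Each arm has 50 cells with a call, most cells cover only part of the CpGs, and methylated calls run side by side in some AG-881 cells while most rows of either arm hold unmethylated calls.

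Cell by cell, few cells were methylated throughout. A cell with at least 3 calls in the window was counted, which left 40 AG-881 cells and 35 DMSO cells, with a median of 5.5 calls in an AG-881 cell and 6 in a DMSO cell. The level of these cells ran from 0 to 100% around a median of 18.3% with AG-881, and from 0 to 60% around a median of 0% with DMSO. Their mean level was 27.2% ± 28.2 with AG-881 and 10.2% ± 15.6 with DMSO (SD over cells), so the cells of the arms overlapped widely. A methylated call was present in 25 of 40 AG-881 cells, or 62.5% (45.8 to 77.3%), and in 14 of 35 DMSO cells, or 40% (23.9 to 57.9%). The shares were 22.5 points apart, with a counting interval of -1.97 to 44.4. At least 50% of calls were methylated in 11 AG-881 cells, or 27.5% (14.6 to 43.9%), and in 1 DMSO cell, or 2.86% (0.0723 to 14.9%), a difference of 24.6 points (6.98 to 41.3). Every call was methylated in 1 AG-881 cell and 0 DMSO cells.

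The share of cells with a methylated call varied between pools. It was 7 of 9, 5 of 9, 2 of 8 and 11 of 14 cells in pools 1 to 4 (AG-881), and 5 of 10, 1 of 6, 5 of 9 and 3 of 10 cells in pools 5 to 8 (DMSO). Here the pools of the arms overlapped: pool 3 with AG-881 lay below pools 5, 7 and 8 with DMSO. Cells with at least 50% of calls methylated numbered 3, 2, 1 and 5 in the AG-881 pools, and 0, 0, 0 and 1 in the DMSO pools. Without pool 4 the difference in the share of cells with a methylated call was 13.8 points.

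Methylated calls in 2 or more blocks of 1 cell were found in both arms. Of 34 AG-881 cells called in 2 or more blocks, 10 had none methylated, 9 had methylated calls in 1 block and 15 in 2 or more. Of 33 DMSO cells called in 2 or more blocks, 21 had none methylated, 8 had methylated calls in 1 block and 4 in 2 or more. Pairs of calls of 1 cell within a block were alike in 74.05% of 393 pairs with AG-881, where the levels of the CpGs alone would give 63.6%, and in 88.5% of 321 pairs with DMSO, where the levels alone would give 85.9%. For calls in different blocks of a cell the shares were 60.2% of 487 pairs against 57.9% from the levels with AG-881, and 80.2% of 378 pairs against 77.4% with DMSO. Pairs share cells and, within a block, may share a sequencing read, so these shares are descriptions.

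The level of a cell at Capn5 was set beside its depth and its level elsewhere. Across the 40 AG-881 cells, Pearson's r between the Capn5 level and the level of the cell at all other CpGs was -0.27 (Spearman's rho -0.24), and across the 35 DMSO cells it was -0.14 (rho -0.12). With the number of CpGs called, r was 0.10 in AG-881 cells (rho 0.09) and -0.20 in DMSO cells (rho -0.23). The cells share a culture and a plate, and each Capn5 level rests on a few calls. The correlations run across pools that differ in level. Among the AG-881 pools, pool 3 had the highest mean cell level, 36.8%, and the lowest mean Capn5 level, 11.5%. In pool 2, 1 AG-881 cell with 3 calls had 66.7% at Capn5 and 16.3% elsewhere.

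**Figure D3:**
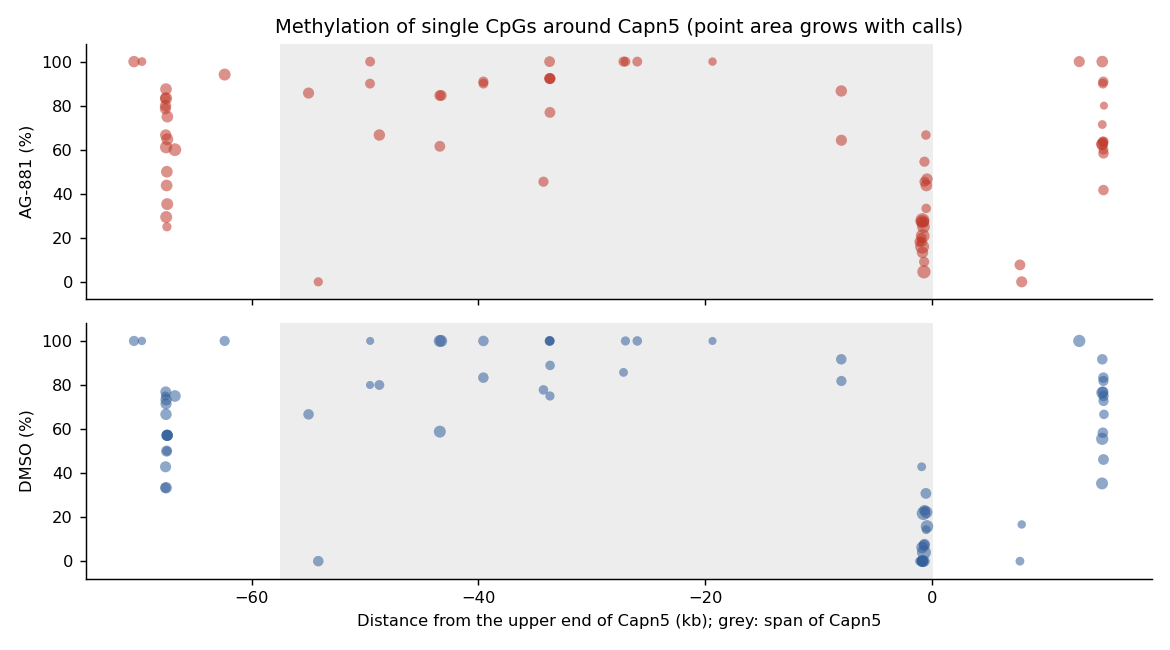
Level of each shared CpG (y axis, percentage of calls methylated; point area grows with its calls) around Capn5 by distance from the upper end (x axis, kb), AG-881 above and DMSO below, with the span of Capn5 in grey. CpGs inside the gene lie mostly above 60% in both arms, and the CpGs just below the upper end form the low column, which reaches higher with AG-881.

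Inside Capn5, more than 1 kb from its ends, most calls were methylated in both arms. The gene body, more than 1 kb from either end, had 79.6% of 270 calls methylated with AG-881 (74.3 to 84.3%) and 81.0% of 231 calls with DMSO (75.3 to 85.8%). The difference was -1.32 points (-8.51 to 6.001), from counting error only. Pools 1 to 4 (AG-881) had body levels of 75.6, 77.8, 79.6 and 83.9%, and pools 5 to 8 (DMSO) 88.0, 73.1, 75.0 and 83.9%, so they overlapped. Of the 23 shared CpGs of the body, 8 were higher with AG-881, 9 were lower and 6 were equal. The body CpG nearest the window was the one 1079 bp below the end, given above, with 2 of 11 calls methylated with AG-881 and 0 of 7 with DMSO. The next lay 7985 and 7974 bp below the end and had 13 of 15 and 9 of 14 calls methylated with AG-881, and 11 of 12 and 9 of 11 with DMSO. Beyond the gene, CpGs 7781 and 7937 bp above the end had 1 of 13 and 0 of 14 calls methylated with AG-881, and 0 of 7 and 1 of 6 with DMSO. The lower end of Capn5 had no CpG in the table.

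The other 5 members were read as family background. A measured end has at least 50 calls from at least 10 cells in each arm; 4 of these members had such an end, and none of those 4 ends differed by 10 points in either direction. The median difference over the 5 measured ends of the 6 members was 0.221 points, against -0.0122 over all 9446 gene ends. Capn1, Capn2 and Capn15 were read at their upper ends and Capn10 at its lower end. RefSeq promoters, which run from 250 bases before to 50 bases after a start, place a start of each of these genes at the end that was read. The promoter table of build GRCm38.p6 matched 5 of the 6 members, all but Capn5, and all 10 of the other calpain system genes. A promoter at each measured end of the other members is shown, 5′ to 3′ along its gene. They come from 3 unmethylated ends (Capn2, Capn10 and Capn15) and a partly methylated one (Capn1). The levels of these ends are largely read from other sequence than that shown. No shared CpG of the Capn1 end lies in a RefSeq promoter of Capn1. Of the shared CpGs of the Capn10 end, only that at chr1:92934349 lies in the promoter shown. CpG density and level are therefore not compared. Capitals mark CpGs that have a position in the table. The measured ends of Capn1 and Capn15 each hold a further RefSeq promoter that is not shown (chr19:6015198-6015497 and chr17:25985825-25986124).

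Capn2 (chr1:182517561-182517860, minus strand): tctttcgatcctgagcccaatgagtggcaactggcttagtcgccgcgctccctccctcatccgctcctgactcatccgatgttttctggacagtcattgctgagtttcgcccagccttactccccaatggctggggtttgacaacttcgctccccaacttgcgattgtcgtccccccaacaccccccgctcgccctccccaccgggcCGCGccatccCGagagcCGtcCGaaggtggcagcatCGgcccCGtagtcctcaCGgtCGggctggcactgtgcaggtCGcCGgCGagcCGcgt

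Capn10 (chr1:92934158-92934457, plus strand): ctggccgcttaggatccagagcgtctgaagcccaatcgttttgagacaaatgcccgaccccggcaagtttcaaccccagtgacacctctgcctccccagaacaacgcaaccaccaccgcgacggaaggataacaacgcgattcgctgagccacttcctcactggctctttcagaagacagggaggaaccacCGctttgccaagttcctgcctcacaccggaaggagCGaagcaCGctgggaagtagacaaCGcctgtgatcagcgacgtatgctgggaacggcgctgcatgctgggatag

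Capn15 (chr17:25985747-25986046, minus strand): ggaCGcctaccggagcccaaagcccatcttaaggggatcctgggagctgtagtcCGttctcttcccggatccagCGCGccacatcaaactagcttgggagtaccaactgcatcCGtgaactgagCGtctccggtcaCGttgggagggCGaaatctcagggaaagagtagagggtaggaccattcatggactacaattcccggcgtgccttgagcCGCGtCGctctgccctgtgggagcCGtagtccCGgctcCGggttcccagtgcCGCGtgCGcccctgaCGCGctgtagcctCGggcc

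Capn1 (chr19:6015776-6016075, minus strand): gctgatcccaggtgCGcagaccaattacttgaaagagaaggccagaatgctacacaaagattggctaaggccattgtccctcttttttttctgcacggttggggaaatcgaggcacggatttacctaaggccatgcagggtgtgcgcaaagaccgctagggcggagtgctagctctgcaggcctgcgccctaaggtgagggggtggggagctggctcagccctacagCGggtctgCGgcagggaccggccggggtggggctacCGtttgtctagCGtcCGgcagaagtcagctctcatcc

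These sequences of 300 bases hold 27 CpGs in Capn2, 21 in Capn10, 25 in Capn15 and 15 in Capn1, against a median of 7 over 32619 promoters. Of them, 13, 4, 20 and 6 have a position in the table. CCGG, the letters at which MspI cuts, which read the same on both strands, stands in 2, 2, 6 and 3 places, and at least 1 CCGG stands in 53.1% of all promoters.

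Capn2, the catalytic subunit of the second classical calpain, was unmethylated at its upper end (gene at chr1:182467253-182517610). Of 335 calls in 33 AG-881 cells 0 were methylated, which allows a level of up to 0.896%, and of 398 calls in 36 DMSO cells 1 was methylated, or 0.251%. Within the promoter shown, 0 of 81 calls were methylated with AG-881 and 0 of 124 with DMSO. Neither arm thus had more than 1 methylated call over the 38 shared CpGs, which lay within 504 bp of the end.

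Capn10, a non-classical calpain first studied for a link with diabetes, was unmethylated in both arms. At its lower end (gene at chr1:92934408-92947948), 0 of 289 calls in 41 AG-881 cells were methylated, which allows up to 1.04%, and 0 of 203 calls in 31 DMSO cells, which allows up to 1.48%. All 8 pools stood at 0. The window is shared with the long non-coding RNA gene 9430060I03Rik, which overlaps Capn10.

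Capn15, related to the fly gene small optic lobes, had the deepest reading of the 6 genes. Its upper end (gene at chr17:25958364-25985874) had 5 of 572 calls methylated with AG-881, or 0.874% (0.284 to 2.03%), and 4 of 612 with DMSO, or 0.654% (0.178 to 1.66%). The difference of 0.221 points (-0.950 to 1.47) was within counting error, and 42 of its 48 shared CpGs were equal in the arms. The methylated calls lay mostly beyond the gene, where 4 of 187 calls were methylated with AG-881 and 4 of 177 with DMSO. Inside the gene it was 1 of 385 with AG-881 and 0 of 435 with DMSO. The stretch beyond Capn15 lies inside the long non-coding RNA gene 1700022N22Rik (chr17:25985830-25991030), which overlaps this end. The single shared CpG at its lower end, 829 bp from it, was methylated in 14 of 14 calls with AG-881 and 5 of 6 with DMSO.

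Capn1, the catalytic subunit of the first classical calpain, was the only other member with a measured end above 1% methylated. Its upper end (gene at chr19:5988545-6015825) had 14.7% of 170 calls from 40 cells methylated with AG-881 (9.75 to 20.9%) and 14.4% of 132 calls from 33 cells with DMSO (8.89 to 21.6%). The difference was 0.312 points (-8.40 to 8.62), and the pools overlapped, at 6.78 to 23.3% with AG-881 and 6.98 to 24.1% with DMSO. The level joins unlike sides. Inside the gene, 104 to 268 bp below the end, 9 CpGs had 9 of 147 calls methylated with AG-881, or 6.12%, and 10 of 122 with DMSO, or 8.20%. Within the promoter shown, 4 of 15 calls were methylated with AG-881 and 1 of 9 with DMSO. Within the further Capn1 promoter at this end, it was 0 of 2 with AG-881 and 2 of 4 with DMSO. Beyond the gene, CpGs at 712 and 773 bp had 16 of 23 calls methylated with AG-881 and 9 of 10 with DMSO. The whole window, these CpGs included, lies inside the long non-coding RNA gene Gm10814 (chr19:6012620-6018459). The shared CpGs of the Capn5 end all lie inside its gene, so the side of Capn1 inside the gene is the one to set beside them. In DMSO cells that side had 8.20%, and the Capn5 end had 10.8%. The difference between arms was -2.07 points (-9.23 to 4.59) inside Capn1, and 16.2 points at the Capn5 end, which was chosen for it. Whether the differences at the ends of Capn5 and Capn1 themselves differ was not tested, as each arm is 1 sample.

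Capn7, a non-classical calpain with microtubule-interacting domains, had too few calls. At its lower end (gene at chr14:31336622-31371987) 6 shared CpGs, all within 389 to 430 bp of the end, had 0 of 48 calls methylated in 8 AG-881 cells, which allows up to 6.25%, and 0 of 36 in 6 DMSO cells, which allows up to 8.33%. Its single shared body CpG was methylated in 8 of 8 calls with AG-881 and 4 of 5 with DMSO.

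**Figure D4:**
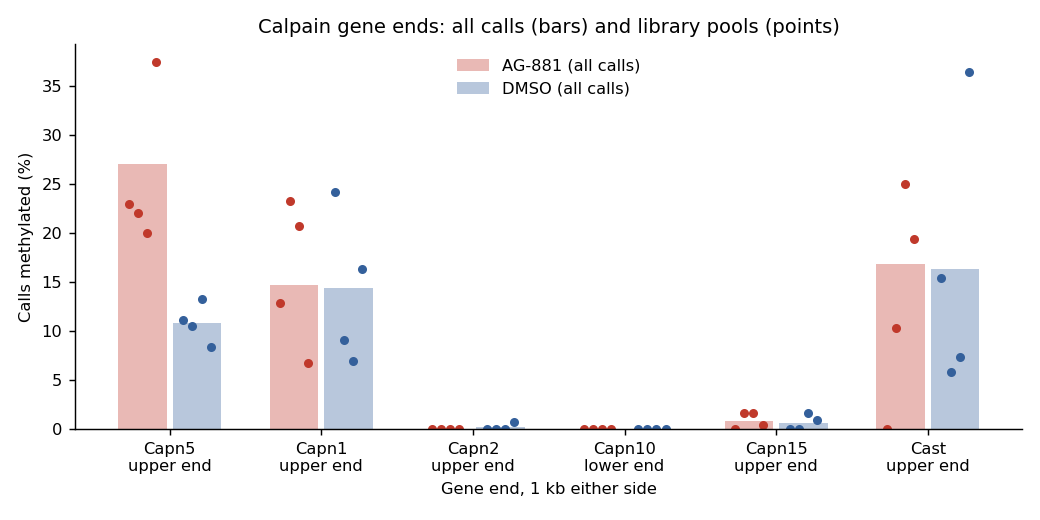
Percentage of calls methylated (y axis) at the measured gene ends of the members and of Cast (x axis), with bars for all calls of an arm and points for its 4 library pools, AG-881 in red left of DMSO in blue. The pools of the arms are apart at Capn5 (20 to 37.4% with AG-881, 8.33 to 13.2% with DMSO), overlap at Capn1 and Cast, and lie at or near 0 at Capn2, Capn10 and Capn15.

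The bodies of the 6 member genes were mostly methylated in both arms where they could be read. Over all 4231 measured bodies of protein-coding genes, 3.33% were at least 10 points higher with AG-881 and 6.33% at least 10 points lower, and the median difference was -0.615 points. Of the 4 measured member bodies, 2 were at least 10 points higher with AG-881, 0 were at least 10 points lower, and the median difference was 4.38 points. The Capn1 body had 80.5% of 174 calls methylated with AG-881 and 68.1% of 113 calls with DMSO, a difference of 12.3 points (1.55 to 23.3). Its pools overlapped, with 76.6 to 84.2% in AG-881 pools and 55.2 to 82.8% in DMSO pools. Of the 17 shared CpGs of the Capn1 body, 2 had calls from 10 or more cells per arm. The difference at those 2 CpGs was -0.294 points, so the direction was not kept at them.

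The Capn2 body had 76.4% of 140 calls methylated with AG-881 and 66.4% of 107 calls with DMSO, a difference of 10.1 points (-1.79 to 21.96). Of its 13 shared CpGs, 3 had calls from 10 or more cells per arm, and at those 3 the difference was -14.5 points. The Capn15 body had 86.7% of 60 calls methylated with AG-881 and 89.4% of 66 calls with DMSO, a difference of -2.73 points (-15.6 to 9.74). The body of Capn10 had no shared CpG; over all its CpGs 85.5% of 62 calls were methylated with AG-881 and 83.9% of 31 calls with DMSO.

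**Figure D5:**
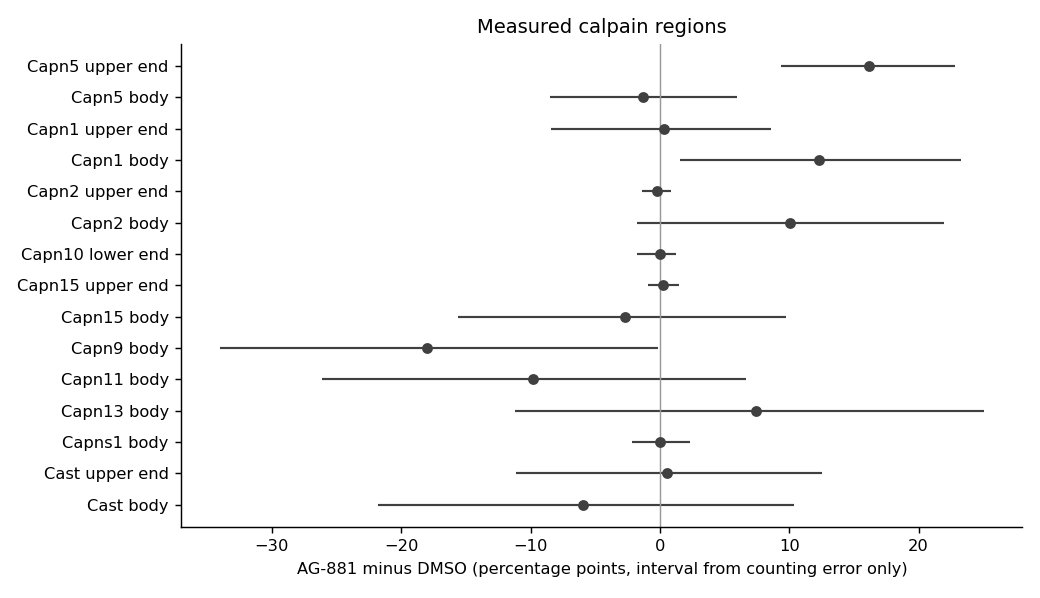
Difference in methylation, AG-881 minus DMSO (x axis, percentage points), at each measured end and body of the calpain system genes (y axis); bars are intervals from counting error only. The Capn5 upper end was chosen for being higher with AG-881, so its place at 16.2 points is no result; the other regions lie between -18.0 (Capn9 body) and 12.3 points (Capn1 body).

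The other 10 genes of the calpain system (Capn3, Capn6, Capn8, Capn9, Capn11, Capn12, Capn13, Capns1, Capns2 and Cast) were sparsely covered. Of their 20 ends, 8 had any CpG in the table and 1 was measured, against 9 and 5 of the 12 ends of the members. That end, the upper end of Cast, the inhibitor of the classical calpains, had 16.9% of 83 calls methylated with AG-881 (9.54 to 26.7%) and 16.3% of 92 calls with DMSO (9.42 to 25.5%). The difference was 0.563 points (-11.2 to 12.5). Capn6 and Capns2 had no CpG in the table.

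Of their 5 measured bodies, 0 were at least 10 points higher with AG-881 and 1 was at least 10 points lower. This was Capn9, a calpain of the digestive tract, with 60.9% of 69 calls methylated with AG-881 and 78.8% of 52 calls with DMSO. The difference was -18.0 points (-34.0 to -0.183). Apart from that at chr8:124613228, its shared body CpGs all lay from chr8:124617519 to chr8:124617577. Each of these was called in at most 11 AG-881 and 7 DMSO cells, so the same cells give several calls and the interval is too narrow. Cast had 34.3% of 70 calls methylated with AG-881 and 40.2% of 82 calls with DMSO. Its body level joins unlike parts. A RefSeq promoter inside the gene, chr13:74770687-74770986, had 2 of 20 calls methylated with AG-881 and 3 of 20 with DMSO. Away from starts, the CpG at chr13:74796145 had 7 of 8 and 11 of 12, and that at chr13:74796165 had 8 of 8 and 12 of 12. Capns1, the small subunit, had 0 of 158 body calls methylated with AG-881, which allows up to 1.90%. With DMSO it was 0 of 169, which allows up to 1.78%. Its shared CpGs lay 7780 to 8115 bp from the lower end of the gene. They lie just inside a start, whose RefSeq promoter is chr7:30195104-30195403 (minus strand), so this body reading is one of sequence by a start. Capn11 and Capn13 differed by -9.82 points (-26.1 to 6.64) and 7.43 points (-11.2 to 25.1), both within counting error.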

How the data were processed

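Single cells of an IdhR132H mouse glioma line, 67 with AG-881 and 74 with DMSO, were profiled by scRRBS joined with Smart-seq2, per the labels' protocols; the transcriptomes were not used here. The deposited table holds, per the file headers and its values, a methylated fraction (0, 0.5 or 1) for each cytosine position and cell, with positions in build mm10 (per the submitters' processing notes). Neither the aligner nor the caller of methylation is given in the sources used here, and the number of reads behind a fraction is unknown. Column names gave the arm and the library pool but not the well.

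The analysis took chromosomes 1 to 19 and X. Neighbouring positions were merged as 1 CpG, values above 0.5 counted as methylated and below as unmethylated, and ties (0.649% of calls) were left out. This gave 396065 shared CpGs. At RefSeq promoters, 79.2% of the positions stood at the C of a CG, 19.2% at the G, and 56.8% of those at the G were followed directly by another CG, so in such runs merging can join neighbouring CpGs. A methylated share is sensitive to incomplete bisulfite conversion, which the table does not show.

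Genes were placed with a RefSeq table (GRCm38.p6) that gives no strand. A gene end was 1 kb either side, and a body lay more than 1 kb inside both ends. A region counted as measured when both arms had 50 calls or more from 10 cells or more. The limit that 0 methylated calls allow is 3 of the calls. The interval of a difference was built from the bounds of both arms by Newcombe's approach. Scripts ran in Python 3.11.15 with numpy 2.4.6, pandas 2.3.3, scipy 1.17.1 and matplotlib 3.10.9, and were tested on simulated calls with known levels.

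The members and lists were chosen with earlier results of these data known. Named genes are the 6 members, the 10 other calpain system genes, genes overlapping or next to Capn5, and the 5 gene ends nearest to the Capn5 end over the 8 pools. No tests were run, since each arm is 1 sample. Alternatives changed the minimum of cells, the merging, the ties, the window, the weighting of cells and CpGs, and the cells or pools included.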

Additional observations from a re-analysis of the deposited data

How the results depend on the processing

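An alternative difference was counted as moved when it left the counting interval of the value reported, and a count of CpGs when it changed by more than 1.5 times; these intervals are wide. By that rule 7 of 78 alternative values for Capn5 moved. The difference at the Capn5 upper end kept its sign in all 23 alternatives, while that of the Capn5 body changed sign in 4 of 17. Within 500 bp of the end the difference was 24.3 points, and 2 of 2 CpGs were higher with AG-881. The shares of cells with a methylated call there, 83.3% with AG-881 and 14.3% with DMSO, were 69.05 points apart. The shared CpGs there lay at 494, 478 and 421 bp, and a counted cell needed a call at each. The CpG at 494 bp had calls from 9 AG-881 and 7 DMSO cells, so these shares rest on no more cells than that. At CpGs with at least 20 calls in each arm, 2 of 2 were higher, by 3.26 points at 731 bp and 0.545 points at 692 bp. Their levels were thus nearly the same in both arms. The counts of CpGs within 500 bp and at 20 calls fell because fewer CpGs were left. The other alternatives that kept all pools gave differences of 15.5 to 18.4 points. Leaving out 1 pool at a time gave differences of 11.1 to 17.8 points, 5 to 12 CpGs higher with AG-881, cell shares 13.8 to 31.9 points apart and a Capn5 body difference of -3.61 to 2.07 points; leaving out 1 cell at a time gave 15.1 to 17.4 points at the end. With the minimum of cells the Capn5 body difference was 1.19 points at 1 cell, 1.74 at 2 and -6.19 at 10. Signs were less stable at the 13 other calpain regions: 31 of 229 alternative values had the sign opposite to the value reported, in 8 of the 13 regions. In the Capn1 body 2 CpGs had calls from 10 or more cells per arm, and in the Capn2 body 3. It was 1 CpG in the Capn13 body and 2 at the Cast upper end. At these few CpGs the Capn1 body stood at -0.294 points and the Capn2 body at -14.5. The Capn13 body stood at -3.64 and the Cast upper end at -10.8. Of the 229, those of the Capn1 and Capn2 bodies were the ones outside their counting intervals. The causes were not tested. Joining the middle of 3 adjacent positions to the upper one, an alternative chosen after seeing the data, gave 16.4 points. No paired analysis was possible because the columns carry no replicate number that links the arms. Depth limits a single CpG to 25 calls per arm or fewer at Capn5.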

Other observations

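The nearest protein-coding genes on either side of Capn5 were methylated inside in both arms. Myo7a, an unconventional myosin of hair cells and retina that lies below Capn5, had a body level of 76.2% over 623 calls with AG-881 and 72.9% over 568 calls with DMSO, a difference of 3.36 points (-1.71 to 8.43). B3gnt6, a glycosyltransferase gene above it, had 70.1% of 137 calls methylated with AG-881 and 66.9% of 157 with DMSO, a difference of 3.19 points (-7.94 to 14.1). Omp, the olfactory marker protein gene, lies inside Capn5, and its upper end had 84.2% of 76 calls methylated with AG-881 and 90.6% of 53 with DMSO, a difference of -6.36 points (-18.3 to 7.06). The long non-coding RNA gene Gm16938 shares the window of Capn5, so its lower end, 21.4% of 154 calls with AG-881 and 4.08% of 98 with DMSO, largely holds the same calls.

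Among 5438 other ends of protein-coding genes with at least 20 calls in every pool, those whose levels over the 8 pools were nearest to the Capn5 end were found by the root mean square difference. The lower end of Anapc2, a subunit of the anaphase-promoting complex, was nearest, at 4.67 points, with 24.6% methylated with AG-881 and 13.3% with DMSO. The upper end of Ppp1r1a, an inhibitor of protein phosphatase 1, followed at 6.64 points, with 25.9% with AG-881 and 14.8% with DMSO. Cog8 at its lower end and Pdf at its upper end share their calls, at 7.07 points, with 22.98% with AG-881 and 10.4% with DMSO. The upper end of Vash2 stood at 7.21 points, with 21.1% with AG-881 and 13.2% with DMSO. In pool 4 these ends had 35.6% (Anapc2), 36.8% (Ppp1r1a), 31.6% (Cog8 and Pdf) and 23.7% (Vash2), and at each it was the highest of the AG-881 pools. Unlike at Capn5, the pools of the arms overlapped at each of these ends. At Anapc2, AG-881 pool 2 had 15.9% and DMSO pool 7 had 24.3%. AG-881 pool 3 had 7.5% at Ppp1r1a, where DMSO pool 8 had 19.2%. It had 10.8% at Cog8 and Pdf, where DMSO pool 5 had 19.3%. At Vash2 it had 17.6%, and DMSO pool 8 had 20.9%. The ends were picked for likeness to the Capn5 end over these same 8 pools, of which pool 4 stood highest at Capn5. Their differences and their high pool 4 were thus part of the choice and are a description.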
